A study of Rattus norvegicus with 4 samples.

Results

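Genes of protein folding and of the unfolded protein response in the endoplasmic reticulum (ER) were measured in pancreatic islets of 14-day-old rats with intrauterine growth restriction (IUGR) and in control islets. The group was drawn from textbook knowledge and held 39 named genes, of which 37 had at least 1 probe under that name and 37 were tested, out of 20158 genes or unnamed probes tested in all. Derl2 and Edem1 had no probe under those names and were not analysed here. The 37 tested genes had 42 probes, all of which passed the filter on dim signals, and the brightest probe stood for each gene. The IUGR samples came from offspring of Sprague Dawley dams whose uterine arteries were both ligated surgically at embryonic day 18, and the control samples from offspring of sham-operated dams. All pups were born spontaneously and were killed at postnatal day 14, and total RNA of their isolated islets was extracted with TRIzol, amplified to cDNA and labelled with Cy3 or Cy5. Each group had 4 biological replicates per the labels, and the sex, the number of pups behind a sample and the litters are not given there.

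Each of 4 arrays on 1 slide held 1 IUGR sample and 1 control sample, with IUGR in Cy5 on arrays 1 and 2 and in Cy3 on arrays 3 and 4. Array 1 paired IUGR replicate 2 with control replicate 1, array 2 IUGR replicate 1 with control replicate 2, array 3 IUGR replicate 4 with control replicate 3, and array 4 IUGR replicate 3 with control replicate 4. The IUGR channel was the brighter one on array 1 only, with a log2 ratio of median signals of 1.68, and was the dimmer one on arrays 2, 3 and 4, at -1.58, -2.42 and -1.55. The islet hormone genes Ins1, Ins2 and Gcg were well above background in 4 of 4 IUGR channels and 4 of 4 control channels. Between 61.8% and 74.0% of probes were well above background in the IUGR channels and between 67.3% and 77.2% in the control channels. In RNA of whole islets, fewer cells of a type and less RNA per cell cannot be told apart.

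Insulin is a secreted protein that folds in the ER, and beta cells carry a heavy load of proinsulin through this compartment. When unfolded proteins accumulate there, the membrane sensors PERK (gene Eif2ak3), IRE1 (Ern1) and ATF6 (Atf6) are released from the chaperone BiP (Hspa5). PERK slows translation and favours the synthesis of the transcription factor ATF4, IRE1 splices the messenger of Xbp1, and ATF6 is cut to a free transcription factor. These factors raise chaperones, disulfide enzymes and the machinery that sends misfolded proteins back to the cytosol for degradation, and prolonged activation of the PERK branch induces Ddit3 (CHOP) and Trib3. Splicing of Xbp1, phosphorylation and cleavage of ATF6 are not seen by probes of total transcript level.

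None of the 37 ER genes passed the test. Limma called 0 of them at a Benjamini-Hochberg adjusted p under 0.05, as it called 0 of all 20158 genes (0%), and their adjusted p ran between 0.340 and 0.988. At an unadjusted p under 0.05, 6 were higher in IUGR islets, against 7.11% of all genes, and 3 were lower, against 6.58%. The 6 were Ppp1r15a, Nupr1, Sec61a1, Sec61b, Sel1l and Derl1, and the 3 were Atf3, Hsp90b1 and Pdia5. All 4 arrays gave a higher IUGR value for 5 genes, against 11.0% of all genes, and a lower one for 1 gene, against 9.68%.

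In sign, 32 of the 37 genes (86.5%) had a mean log2 IUGR over control ratio above 0, against 52.9% of all genes. This direction depended on the scaling. With each array centred on its median in place of loess, 13 of 37 were above 0, against 46.8% of all genes. The median ratio of the group was 0.20 with loess, beside 0.01 over all genes, and -0.11 with median centring, beside -0.05. With loess the group's medians on arrays 1 to 4 were -0.07, 0.42, 0.38 and 0.17, against medians of all genes between -0.0055 and 0.02, and 15, 32, 28 and 28 of the 37 genes were above 0. Thus the ER genes were mostly higher in the IUGR sample on arrays 2, 3 and 4 and mostly lower on array 1. The pattern of a negative ratio on array 1 and positive ones on the other 3 was found in 18 of 37 genes (48.6%), against 16.3% of all genes. The arrays split in the same way by which channel was brighter. With the brightness ratio as a covariate in place of the dye term, 30 of 37 genes were above 0, against 54.3% of all genes. Their median was then 0.13. The mean ratio was larger in size than the SD over the arrays for 10 of 37 ER genes (27.0%), close to the 25.1% of all genes, and 12 of 37 had opposite signs in the 2 dye orientations, as did 7942 of 20158 genes.

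**Figure D1:**
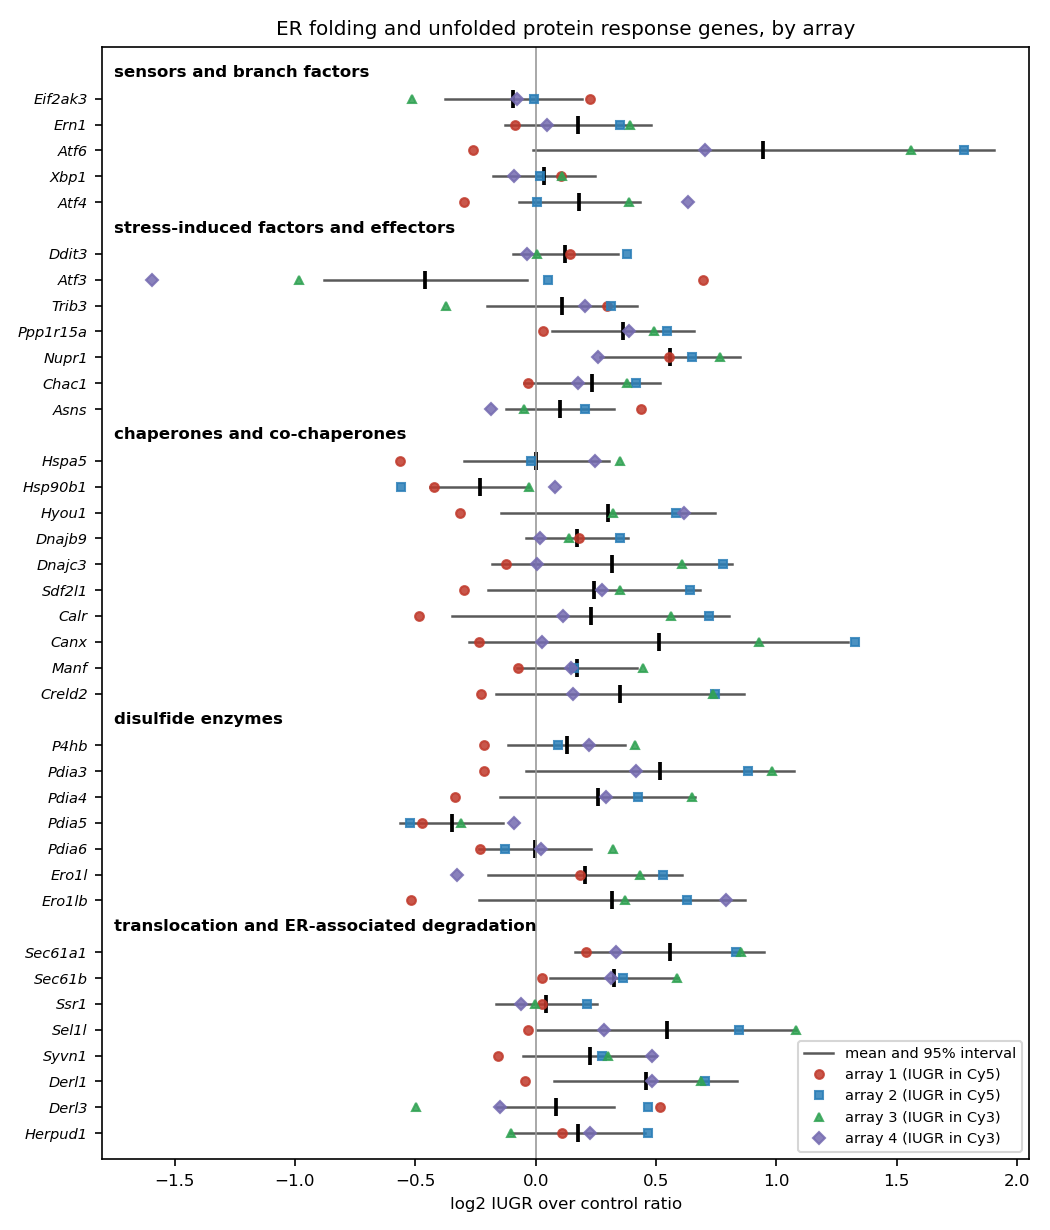
Log2 IUGR over control ratio (horizontal axis) of the 37 tested ER genes, in 5 role groups, with 1 coloured symbol per array, the limma mean as a vertical tick and its 95% confidence interval as a line. The red circles of array 1 lie left of the other symbols for most chaperones and disulfide enzymes, and Nupr1, Ppp1r15a, Dnajb9, Sec61a1 and Sec61b lie right of 0 on all 4 arrays. On this loess scale 32 of 37 means lie right of 0 (52.9% of all genes), and with median centring 13 do (46.8% of all genes).

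**Figure D2:**
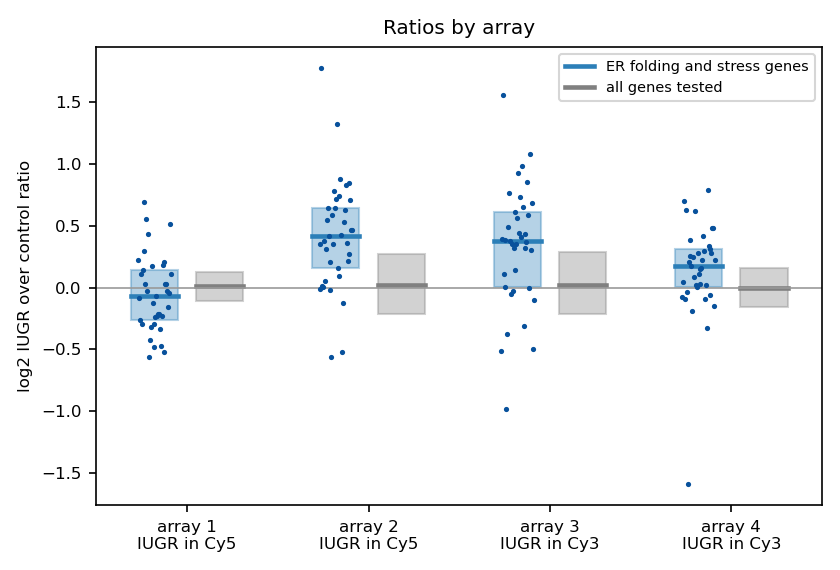
Log2 IUGR over control ratios by array, for the 37 ER genes (blue points, with a box from the lower to the upper quartile and a line at the median) and for all 20158 genes tested (grey box and line). The blue medians are -0.07, 0.42, 0.38 and 0.17 on arrays 1 to 4 and the grey ones stay near 0, on the loess scale; with median centring the group's overall median is -0.11.

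The levels of single samples, as log2 normalized channel intensity after loess and scaling between arrays, are given here by sample. Control replicate 1, on array 1, was the highest of the 4 controls for 23 of 37 ER genes (62.2%), against 35.4% of all genes, and IUGR replicate 1, on array 2, was the highest of the IUGR samples for 19 (51.4%), against 30.9%. Both were the dimmer channel of their array, so the sample and the channel brightness cannot be told apart. Levels of the 4 IUGR and the 4 control samples overlapped for all 37 ER genes, and for all but 3.10% of all genes, so these shares are close. With array 1 left out, the IUGR levels lay wholly above the control levels for 14 of 37 ER genes, against 18.4% of all genes, and wholly below for 1, against 16.0%. On the arrays that then remain IUGR was always the dimmer channel, so group and channel brightness cannot be told apart there. Leaving out array 2, 3 or 4 gave 1, 1 and 2 ER genes wholly above, against 2.26%, 2.40% and 5.62% of all genes, and 0, 0 and 1 wholly below, against 2.90%, 3.29% and 4.70%. These counts with an array left out were chosen after seeing the data. Without array 1, 18 ER genes were higher at an unadjusted p under 0.05, against 17.2% of all genes, and 2 were lower, against 13.7%, and the smallest limma adjusted p was 0.0746. Without array 2, 3 or 4 the counts were 2, 1 and 3 higher, against 1.96%, 0.714% and 5.90% of all genes, and 1, 1 and 1 lower, against 2.68%, 1.60% and 4.72%.

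Promoters of the group were read from RefSeq on assembly GRCr8, where 30 of the 39 genes had an entry running from 250 bases before the transcription start to 50 after it. They are shown because ATF6, XBP1 and ATF4 act through short elements in such promoters. The ER stress response element (ERSE) was searched as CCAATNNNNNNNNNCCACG, its second form (ERSE-II) as ATTGGNCCACG, the unfolded protein response element as TGACGTGG and the core of the composite site bound by ATF4 as TGATGNAA, on both strands. ERSE was found in 9 of 30 promoters (30%), against 0.0765% of all 27457 promoters of the table, and ERSE-II in 2 (6.67%), against 0.0546%. The unfolded protein response element was found in 1 (3.33%), against 0.637%, and the ATF4 core in 4 (13.3%), against 3.82%. Because the group was drawn from textbook knowledge of this response, these shares describe the list and are not a test of it. The elements stand below 5′ to 3′ on their own strand, with the letters fixed by the search in capitals.
Hspa5, ERSE: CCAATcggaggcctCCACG
Hsp90b1, first ERSE: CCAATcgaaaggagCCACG
Hsp90b1, second ERSE: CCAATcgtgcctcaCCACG
Xbp1, ERSE: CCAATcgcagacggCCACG
Dnajc3, ERSE: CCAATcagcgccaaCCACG
Calr, ERSE: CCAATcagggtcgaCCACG
Canx, ERSE: CCAATcatcacgctCCACG
Creld2, ERSE: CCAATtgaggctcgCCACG
Derl3, ERSE: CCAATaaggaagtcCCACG
Ero1lb, ERSE: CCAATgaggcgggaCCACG
Herpud1, ERSE-II: ATTGGgCCACG
Hyou1, ERSE-II upstream: ATTGGcCCACG
Hyou1, ERSE-II downstream: ATTGGgCCACG
Hyou1, unfolded protein response element: TGACGTGG
Trib3, ATF4 core: TGATGtAA
Herpud1, ATF4 core: TGATGcAA
Chac1, ATF4 core: TGATGcAA
Nupr1, ATF4 core: TGATGcAA

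Promoters of 3 genes are given as the 250 bases before the start, read 5′ to 3′ along the gene with the elements in capitals. The Hspa5 promoter is shown for the classic ERSE, the Hyou1 promoter for holding 3 elements, and the Nupr1 promoter because Nupr1 had the smallest p of the group.
Hspa5, chr3:38452766-38453015 (plus strand): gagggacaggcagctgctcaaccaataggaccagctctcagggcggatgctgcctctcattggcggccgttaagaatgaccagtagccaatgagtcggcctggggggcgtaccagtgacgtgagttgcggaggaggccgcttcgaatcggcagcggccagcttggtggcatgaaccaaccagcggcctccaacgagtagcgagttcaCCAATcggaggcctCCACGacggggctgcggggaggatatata
Hyou1, chr8:53602632-53602881 (plus strand): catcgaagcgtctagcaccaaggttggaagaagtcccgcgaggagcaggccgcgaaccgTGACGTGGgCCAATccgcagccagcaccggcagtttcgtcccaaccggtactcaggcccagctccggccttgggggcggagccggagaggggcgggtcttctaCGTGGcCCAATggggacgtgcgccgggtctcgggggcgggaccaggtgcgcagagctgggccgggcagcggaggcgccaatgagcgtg
Nupr1, chr1:190645902-190646151 (minus strand): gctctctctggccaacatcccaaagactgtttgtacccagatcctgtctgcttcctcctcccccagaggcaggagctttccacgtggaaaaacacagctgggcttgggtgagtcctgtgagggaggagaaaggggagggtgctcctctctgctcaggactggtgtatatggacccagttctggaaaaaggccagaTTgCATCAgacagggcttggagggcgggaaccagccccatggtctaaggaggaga
With the start as the origin, the ERSE of Hspa5 began at base -43, on the strand of the gene. In Hyou1 the unfolded protein response element began at base -191 and overlapped the upstream ERSE-II, which lay on the other strand, and in Nupr1 the ATF4 core was also on the other strand. The 9 tested genes with an ERSE had a median log2 ratio of 0.23 with loess, with 8 above 0. The 19 tested genes with a promoter entry but no ERSE had a median of 0.18, with 17 above 0. Some of these, such as Hyou1 and Herpud1, hold another of the elements. With median centring 3 of the 9 were above 0, at a median of -0.11, and 5 of the 19, at -0.12. The 4 genes with the ATF4 core were all above 0 with loess at a median of 0.20, and with median centring all but Herpud1 were, at 0.19. Presence of the letters is a description of the sequence and says nothing of binding in these islets.

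**Figure D3:**
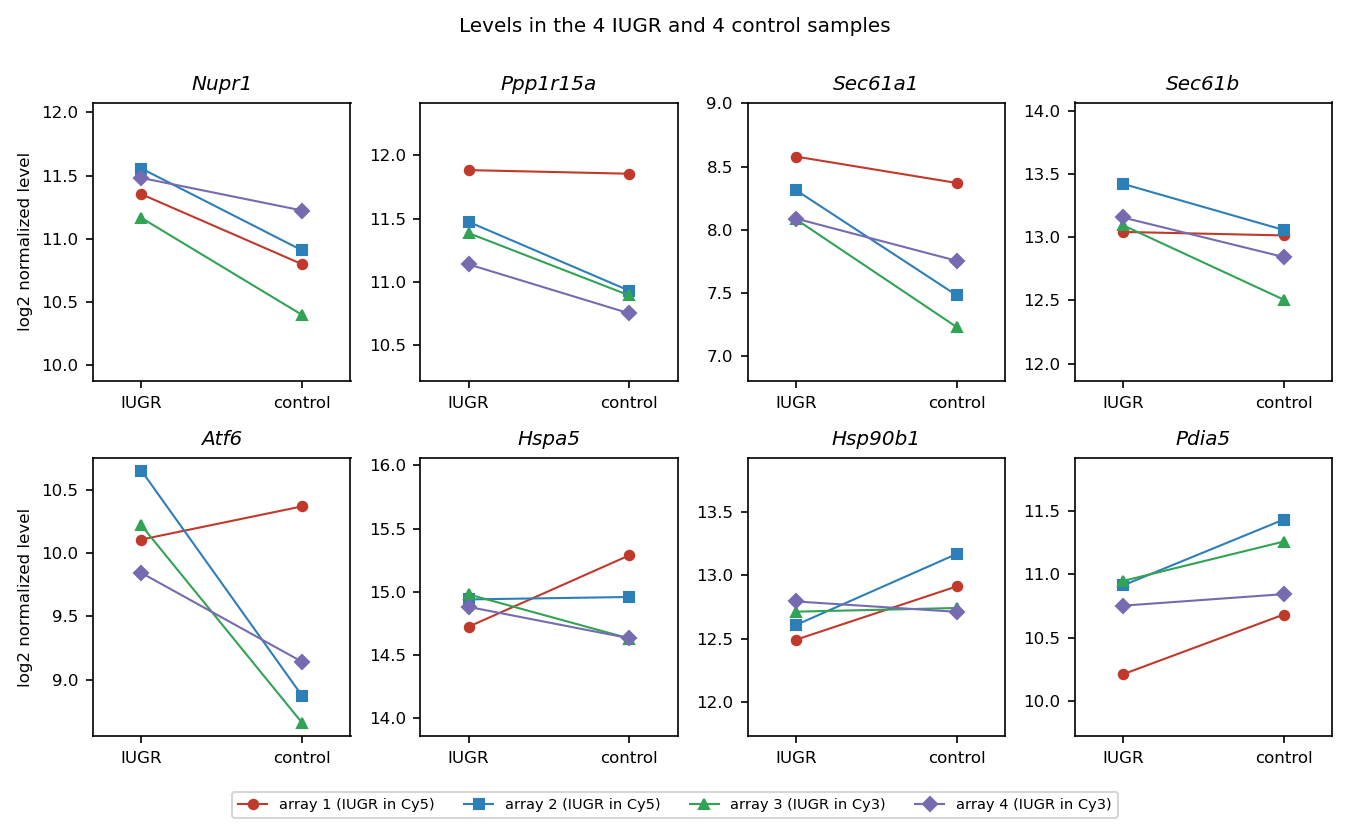
Log2 normalized level of 8 ER genes in each IUGR sample (left) and control sample (right), with a line joining the samples of an array; all panels span the same number of log2 units. Control replicate 1 (red circles, right) stands above the other controls for Ppp1r15a, Sec61a1, Atf6 and Hspa5, and every line falls toward the control side for Nupr1 and toward the IUGR side for Pdia5.

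Among the sensors and the factors directly below them, 4 of 5 genes had a ratio above 0 with loess (2 of 5 with median centring), with a group median of 0.18, and none passed an unadjusted p of 0.05. Atf6, the sensor that becomes a transcription factor after cleavage, had log2 levels of 10.11, 10.65, 10.22 and 9.84 in the IUGR samples on arrays 1 to 4, against 10.37, 8.87, 8.66 and 9.14 in the control samples. The controls on arrays 2, 3 and 4 lay below all 4 IUGR samples, and only control replicate 1 overlapped them. Its ratios on arrays 1 to 4 were -0.26, 1.78, 1.56 and 0.70, and the mean was 0.95 ± 0.37 (moderated limma SE, n = 4 arrays), the highest of the group, with a limma p of 0.0520 and an adjusted p of 0.340. A second Atf6 probe had ratios of 0.06, 1.15, 0.84 and 0.09 and a mean of 0.54, so both probes were highest on arrays 2 and 3. The probe used lay at 86543773 to 86543832 on chromosome 13 of assembly rn4, as the scanner files give it.

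Eif2ak3, the PERK kinase, had levels of 9.12, 9.16, 8.85 and 9.13 in the IUGR samples on arrays 1 to 4, against 8.89, 9.17, 9.36 and 9.21 in the control samples. The groups overlapped and the lowest sample was IUGR replicate 4. Its ratios were 0.23, -0.01, -0.51 and -0.08, with a mean of -0.09 ± 0.11 and an adjusted p of 0.636, and this was the only gene of the role group with a mean below 0. Ern1, the IRE1 kinase and nuclease, was dim, with levels of 6.70, 6.68, 6.65 and 6.24 in the IUGR samples on arrays 1 to 4, against 6.78, 6.33, 6.26 and 6.19 in the control samples. It was well above background in 3 of 4 IUGR channels and 4 of 4 control channels. Control replicate 1 was the highest sample, and IUGR replicate 3 lay among the other controls. Its ratios were -0.08, 0.35, 0.39 and 0.05 and its mean 0.18 ± 0.12, with an adjusted p of 0.423, and the ratio was 0.79 with median centring and 0.86 with Agilent's processed signals.

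Xbp1, the transcription factor gene whose messenger IRE1 splices, had levels of 12.11, 12.06, 12.09 and 12.29 in the IUGR samples on arrays 1 to 4, against 12.00, 12.05, 11.99 and 12.38 in the control samples. The IUGR range lay within the control range. The ratios were 0.11, 0.02, 0.11 and -0.09 and the mean 0.04 ± 0.08, with a 95% confidence interval of -0.18 to 0.25, one of the narrowest of the group, and an adjusted p of 0.816. Atf4, the effector of the PERK branch and of amino acid shortage, had levels of 14.15, 14.15, 14.28 and 14.41 in the IUGR samples on arrays 1 to 4, against 14.45, 14.15, 13.89 and 13.78 in the control samples. The IUGR samples lay close together, while the controls were spread on both sides of them. Its ratios of -0.30, 0.0035, 0.39 and 0.63 averaged 0.18 ± 0.10, with an adjusted p of 0.361, and differed by dye orientation at -0.15 over the arrays with IUGR in Cy5 and 0.51 over those with IUGR in Cy3. With median centring both were below 0, Xbp1 at -0.32 and Atf4 at -0.19.

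Of the 7 stress-induced factors and effectors, 6 had a ratio above 0 with loess (4 with median centring), and the group median was 0.12. Nupr1, a small stress-induced nuclear protein originally found in inflamed rat pancreas, had levels of 11.35, 11.56, 11.16 and 11.48 in the IUGR samples on arrays 1 to 4, against 10.80, 10.91, 10.40 and 11.22 in the control samples. All IUGR samples but one lay above every control, and the groups overlapped through control replicate 4, which exceeded IUGR replicate 4. Each array gave a higher IUGR value, with ratios of 0.55, 0.65, 0.77 and 0.26, and the mean of 0.56 ± 0.11 had the smallest p of the ER genes at 0.00477, with an adjusted p of 0.340. Its mean was 0.60 over the arrays with IUGR in Cy5 and 0.51 over those with IUGR in Cy3, so it was above 0 in both dye orientations, and with median centring it was 0.21. The probe lay at 185771672 to 185771731 on chromosome 1 of rn4.

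Ppp1r15a (GADD34) directs a phosphatase to eIF2 alpha and so restores translation after PERK signalling. Its levels were 11.88, 11.47, 11.39 and 11.14 in the IUGR samples on arrays 1 to 4, against 11.86, 10.93, 10.89 and 10.75 in the control samples. The samples of array 1 were the highest of both groups, and without that pair the remaining IUGR samples lay above the remaining controls. With ratios of 0.03, 0.54, 0.49 and 0.39 and a mean of 0.36 ± 0.11, it had a p of 0.0251 and an adjusted p of 0.340, and its ratio was 0.04 with median centring.

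Ddit3, the proapoptotic factor CHOP, had levels of 11.00, 11.46, 10.98 and 10.99 in the IUGR samples on arrays 1 to 4, against 10.86, 11.08, 10.97 and 11.03 in the control samples. IUGR replicate 1 stood above the other 7 samples, which overlapped. The ratios were 0.14, 0.38, 0.01 and -0.04 and the mean 0.12 ± 0.08, with an adjusted p of 0.431. Trib3, a pseudokinase induced by CHOP and ATF4, had levels of 7.83, 7.83, 7.46 and 7.47 in the IUGR samples on arrays 1 to 4, against 7.54, 7.51, 7.83 and 7.27 in the control samples. The IUGR sample of each array was above its control except on array 3. Ratios of 0.29, 0.31, -0.37 and 0.20 gave a mean of 0.11 ± 0.12 and an adjusted p of 0.611. The ATF4 and CHOP target Chac1, an enzyme that degrades glutathione, had a mean of 0.23 ± 0.11, and the asparagine synthetase gene Asns, an ATF4 target, had 0.10 ± 0.09. With median centring Ddit3 was at -0.23 and Trib3 at 0.22.

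Atf3, a stress factor that is also an immediate early gene, went the other way, with levels of 11.82, 10.72, 10.04 and 9.66 in the IUGR samples on arrays 1 to 4, against 11.13, 10.67, 11.02 and 11.25 in the control samples. The IUGR samples spread over 2.16 log2 units and lay above and below the controls, which spread over 0.58. Its array ratios of 0.69, 0.05, -0.98 and -1.59 had an SD of 1.02, the widest of the group. Its mean was -0.46 ± 0.16 with a p of 0.0386 and an adjusted p of 0.340, and -0.78 with median centring. This SE has the dye difference taken out and is far smaller than the spread of the arrays, since the mean was 0.37 over the arrays with IUGR in Cy5 and -1.29 over those with IUGR in Cy3. Immediate early and cytosolic heat shock genes, which respond to how tissue is handled, had ratios below 0 for 14 of 14 tested genes (13 with median centring and 10 without array 4), with Fos at -0.93, and array medians of -0.11, -0.22, -0.19 and -0.26. The summed level of these genes was between 96876 and 151649 intensity units in IUGR samples and between 121734 and 165689 in control samples, all 14 were well above background, and their part in the Atf3 values was not tested.

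Chaperones and co-chaperones were above 0 in 9 of 10 genes with loess but in 2 of 10 with median centring. Their array medians were -0.27, 0.61, 0.40 and 0.13, and 1 of 10 was above 0 on array 1, against 8, 9 and 10 of 10 on arrays 2, 3 and 4. Hspa5 encodes BiP, the main ER chaperone and the usual readout of the response, and its levels were 14.72, 14.94, 14.98 and 14.88 in the IUGR samples on arrays 1 to 4, against 15.29, 14.96, 14.63 and 14.63 in the control samples. The IUGR samples spanned 0.25 log2 units and the controls 0.66, with control replicate 1 the highest sample of all. Ratios of -0.56, -0.02, 0.35 and 0.25 averaged 0.0033 ± 0.12, with a 95% confidence interval of -0.30 to 0.31 and an adjusted p of 0.988, and the ratio was -0.38 with median centring. The mean was -0.29 over the arrays with IUGR in Cy5 and 0.30 over those with IUGR in Cy3. Its probe lay at 13787739 to 13787798 on chromosome 3 of rn4.

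Hsp90b1 (GRP94), the ER member of the HSP90 family and the holder of a pair of ERSE matches, was lower in IUGR islets on 3 of 4 arrays. Its levels were 12.49, 12.61, 12.71 and 12.80 in the IUGR samples on arrays 1 to 4, against 12.91, 13.17, 12.74 and 12.71 in the control samples. The highest samples were control replicates 1 and 2, and the other samples overlapped. Ratios of -0.42, -0.56, -0.03 and 0.08 gave a mean of -0.23 ± 0.08, a p of 0.0341 and an adjusted p of 0.340. Like Atf3 it depended on dye orientation, at -0.49 over the arrays with IUGR in Cy5 and 0.03 over those with IUGR in Cy3, and with median centring it was -0.59.

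Dnajb9 (ERdj4), an Xbp1 target that works with BiP, was the 1 chaperone gene above 0 on all arrays. Its levels were 11.02, 11.16, 10.66 and 10.81 in the IUGR samples on arrays 1 to 4, against 10.84, 10.81, 10.52 and 10.79 in the control samples. Within each array the IUGR sample was the higher, and across arrays the groups overlapped. Its ratios were 0.18, 0.35, 0.14 and 0.02 and its mean 0.17 ± 0.08, with an adjusted p of 0.340, and the ratio was -0.17 with median centring. The lectin chaperones for glycoproteins had means of 0.51 ± 0.30 for Canx and 0.23 ± 0.22 for Calr, both negative on array 1 and highest on array 2. The remaining chaperone genes were Creld2 at 0.35 ± 0.20, Dnajc3 at 0.32 ± 0.19, Hyou1 at 0.30 ± 0.17, Sdf2l1 at 0.24 ± 0.17 and Manf at 0.17 ± 0.10. Manf, a secreted ER protein needed for beta cell survival in mice, had ratios of -0.07, 0.16, 0.45 and 0.15.

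The disulfide enzymes, which form and rearrange the bonds that proinsulin needs, had 5 of 7 ratios above 0 with loess and 2 of 7 with median centring. Their array medians were -0.23, 0.42, 0.41 and 0.22. Pdia5, a disulfide isomerase reported to act on ATF6 in human cancer cells, was the only ER gene lower on all 4 arrays. Its levels were 10.21, 10.91, 10.95 and 10.75 in the IUGR samples on arrays 1 to 4, against 10.68, 11.43, 11.26 and 10.84 in the control samples. IUGR replicate 2 was the lowest sample, control replicates 2 and 3 were the highest, and the groups overlapped between 10.68 and 10.95. The ratios were -0.47, -0.52, -0.31 and -0.09 and the mean -0.35 ± 0.08, with a p of 0.00903 and an adjusted p of 0.340. The sign of Pdia5 was the same under 18 of 18 alternatives, at -0.71 with median centring, but several of these leave the mean ratio unchanged by design. The probe lay within 67203474 to 67204255 on chromosome 11 of rn4.

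Pdia3, which serves glycoproteins together with Canx and Calr, had the highest mean of the disulfide enzymes at 0.52 ± 0.21. Its ratios were -0.21, 0.88, 0.98 and 0.42, and the adjusted p was 0.340. Ero1lb, the beta cell form of the oxidase that recharges the isomerases, had 0.32 ± 0.21, and its widely expressed relative Ero1l had 0.20 ± 0.15. Pdia4 had 0.26 ± 0.15, P4hb (the founding disulfide isomerase) had 0.13 ± 0.09 and Pdia6 had -0.0041 ± 0.09. None of these had an unadjusted p under 0.05.

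Translocation and ER-associated degradation was the role group with every tested gene above 0, 8 of 8 with loess against 3 of 8 with median centring, and its median was 0.27. Sec61a1, the channel subunit through which nascent proteins enter the ER, had levels of 8.58, 8.31, 8.08 and 8.09 in the IUGR samples on arrays 1 to 4, against 8.37, 7.48, 7.23 and 7.76 in the control samples. The controls of arrays 2, 3 and 4 lay below every IUGR sample, and control replicate 1 lay among them. Ratios of 0.21, 0.83, 0.85 and 0.33 averaged 0.56 ± 0.15, with a p of 0.0154 and an adjusted p of 0.340, and the ratio was 0.64 with median centring. The probe lay at 122601518 to 122601577 on chromosome 4 of rn4. Sec61b, a small subunit of the same channel, had levels of 13.04, 13.42, 13.09 and 13.16 in the IUGR samples on arrays 1 to 4, against 13.01, 13.06, 12.51 and 12.84 in the control samples. Control replicate 3 was the lowest sample and IUGR replicate 1 the highest, with overlap in between. Ratios of 0.03, 0.36, 0.59 and 0.31 averaged 0.32 ± 0.10, with a p of 0.0265 and an adjusted p of 0.340, and the ratio was -0.03 with median centring.

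Sel1l, the scaffold of the HRD1 ubiquitin ligase complex, had levels of 8.28, 8.50, 8.60 and 8.43 in the IUGR samples on arrays 1 to 4, against 8.32, 7.66, 7.52 and 8.15 in the control samples. As for Sec61a1, only control replicate 1 reached the IUGR samples. Its ratios were -0.03, 0.85, 1.08 and 0.28 and its mean 0.54 ± 0.21, with a p of 0.0480 and an adjusted p of 0.340. A second Sel1l probe had a mean of 0.32, with a limma p of 0.0901 in a fit over all probes. Derl1, a membrane protein of the retrotranslocation channel, had levels of 12.33, 12.51, 12.39 and 12.13 in the IUGR samples on arrays 1 to 4, against 12.38, 11.80, 11.71 and 11.65 in the control samples. The pattern was the same, with control replicate 1 among the IUGR samples and the other controls below them. Its ratios of -0.05, 0.70, 0.69 and 0.48 averaged 0.46 ± 0.15, with a p of 0.0277 and an adjusted p of 0.340, and the ratio was 0.12 with median centring. Syvn1, the HRD1 ligase itself, had 0.23 ± 0.11, Herpud1, which helps assemble the complex, 0.17 ± 0.11, Derl3, a relative of Derl1, 0.08 ± 0.09 and Ssr1, a subunit beside the channel, 0.04 ± 0.08. For Ssr1 a second probe had ratios of -0.08, 0.35, 0.24 and 0.13 and a mean of 0.16. The Ssr1 probe used had ratios of 0.03, 0.21, -0.0011 and -0.06. A second Derl3 probe had ratios of 0.51, 0.93, 0.33 and 0.0029 and a mean of 0.45, with a limma p of 0.0126 and an adjusted p of 0.340 in a fit over all probes. The Derl3 probe used was below 0 on arrays 3 and 4, at -0.50 and -0.15. For Derl3 the choice of probe thus decides its place in the counts by unadjusted p and by sign on all arrays.

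**Figure D4:**
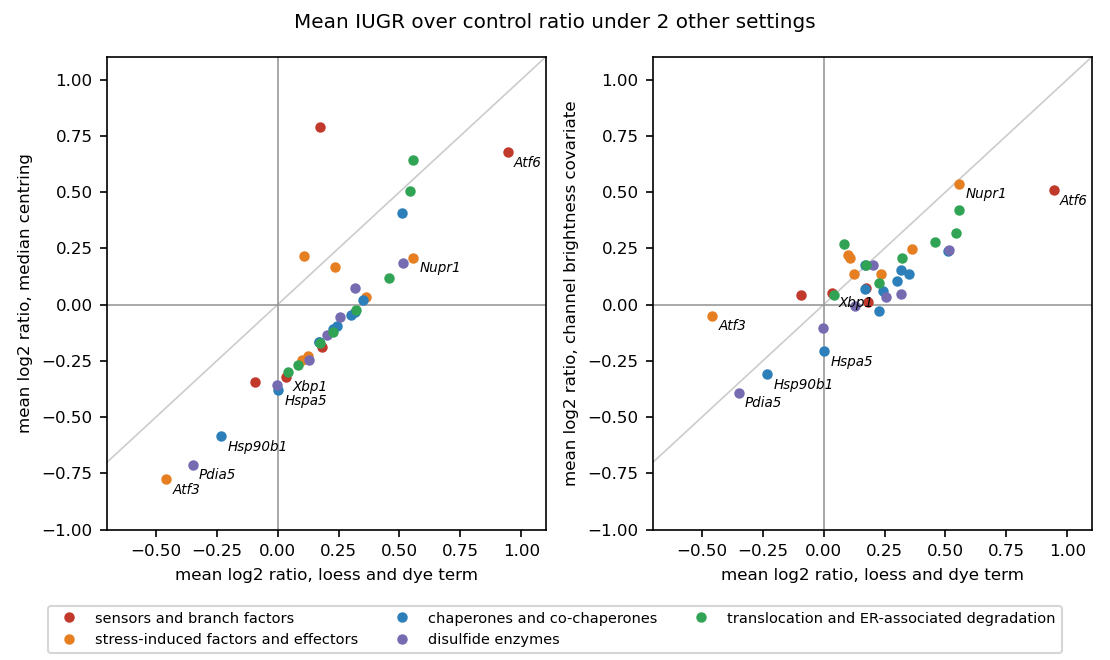
Mean log2 IUGR over control ratio of the 37 ER genes with loess and a dye term (horizontal) against the ratio with median centring of each array (left panel, vertical) and with channel brightness as a covariate (right panel, vertical), coloured by role group, with a grey line of equality. With median centring most genes shift below 0 (13 of 37 above 0, against 46.8% of all genes). With the covariate 30 of 37 are above 0, against 54.3% of all genes, and Hspa5 moves to -0.21.

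A wider list of 119 other ER genes, of which 111 were tested, was set beside the group. Limma called 0 of them. At an unadjusted p under 0.05, 18 were higher, against 7.11% of all genes, and 6 lower, against 6.58%. On all 4 arrays 28 were higher, against 11.0% of all genes, and 3 lower, against 9.68%. Their median ratio was 0.13. With loess 70 of 111 (63.1%) were above 0, against 52.9% of all genes, and with median centring 29 of 111, against 46.8%. By role, with loess, 14 of 22 other chaperones, disulfide and lectin genes were above 0, as were 21 of 30 genes of the translocon, signal peptidase and oligosaccharyl transferase, 12 of 19 genes of ER-associated degradation and 23 of 40 other branch factors and ATF4 targets. The 3 with the smallest p among the higher ones were Atf5, a transcription factor induced downstream of eIF2 alpha, at 0.58 ± 0.15, Cars, the cysteine transfer RNA synthetase, at 0.27 ± 0.08, and Psat1, an enzyme of serine synthesis, at 0.25 ± 0.08. Each was above 0 on all 4 arrays, with Atf5 at 0.06, 0.90, 0.70 and 0.66, and with median centring Cars and Psat1 were at -0.0039 and -0.06. Among the lower ones they were Rnf139, an ER ubiquitin ligase, at -0.38 ± 0.12, the lipoprotein receptor gene Vldlr at -0.28 ± 0.09 and Spcs3, a signal peptidase subunit, at -0.63 ± 0.21. All 6 had a limma adjusted p of 0.340.

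Acinar cells, the enzyme-secreting cells of the exocrine pancreas, are rich in ER and can remain with isolated islets. All 16 tested acinar marker genes of 17 listed had mean ratios above 0 with loess, but 7 of 16 did with median centring and 7 of 16 without array 3. Their array medians were 0.32, 0.11, 1.49 and -0.20. Their summed level ran between 746706 and 1631670 intensity units in IUGR samples and between 579940 and 1261600 in control samples, and all 16 were well above background, so none was at 0. Bhlha15 (MIST1), the acinar factor that also scales up the secretory pathway, had ratios of -0.16, 0.18, 0.73 and 0.76 and a mean of 0.38 ± 0.09. Of 11 beta cell markers 9 had ratios above 0 (3 with median centring), with array medians of 0.20, 0.65, 0.35 and 0.07. The mean ratios of 6 of 6 markers of alpha, delta and PP cells were below 0 (4 without array 2). Their array medians were 0.30, -0.13, -0.67 and -0.58, so array 1 went the other way. Ins1 had ratios of 1.06, 1.70, -0.98 and -0.89, Ins2 1.26, 1.72, -1.03 and -0.79, and Gcg 1.04, 0.27, -0.48 and -1.34. Each of these was opposite by dye orientation. With loess, macrophage markers had a median of 0.31, with 5 of 8 above 0 and 3 below. T and B cell markers had a median of -0.49, with 8 of 9 below 0. With median centring these medians were 0.32 and -0.26. The T and B cell markers Ms4a1, Cd3e and Cd8a passed the filter only through the control channels. They were well above background in 0, 1 and 1 IUGR channels, against 3 control channels each. Only 4 of the 9 were well above background in all channels, with 4 below 0, and on array 1 6 of 9 were above 0. Duct, endothelial, fibroblast and red blood cell markers had medians of -0.34, 0.14, -0.09 and 0.60 with loess and of -0.62, -0.22, -0.41 and 0.24 with median centring. With the brightness covariate the endothelial median was -0.11 and the red blood cell one 0.20. The part of cell makeup in the ER gene values was not tested. Across genes, which are not independent replicates, ER gene ratios of arrays 2 and 3 correlated at r = 0.71 and those of arrays 1 and 4 at -0.56 (n = 37 genes, arrays sharing no sample), beside 0.63 and -0.30 over all genes. These were the highest and the lowest array pairs for the ER genes. The other pairs had r of 0.000093 (arrays 1 and 2), -0.42 (1 and 3), 0.35 (2 and 4) and 0.63 (3 and 4).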

How the data were processed

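RNA abundance was read on two-colour Agilent arrays of 60-base probes (design 28282). Per the file headers, the authors extracted the signals with Feature Extraction 10.10.1.1 under protocol GE2_1010_Sep10, with probe positions on assembly rn4. The deposited scanner files give mean signals and median local backgrounds as intensity, and a deposited log10 ratio of Cy5 over Cy3 processed signals. The deposited value table holds log2 ratios of Cy5 over Cy3. Their scale and direction were set from the scanner values, with which they correlated at r between 0.986 and 0.998 after loess without background subtraction, and the labels do not state their normalization. The submitters' processing notes name limma without a version.

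In R 4.3.3 with limma 3.58.1, backgrounds were corrected by normexp with an offset of 50, an outlying local background was replaced by the median of its array and channel, and loess within each array gave control spots a weight of 0. Feature outliers were left out and spots of a probe averaged. Genes measured on 4 arrays and well above background in at least 2 IUGR or 2 control channels were tested. A dye term and the IUGR contrast entered the limma model, with 2 residual and 2.75 prior degrees of freedom, and p-values were adjusted over 20158 genes by Benjamini-Hochberg. Each SE is limma's moderated SE, which leaves out the dye difference. Levels are log2 channel values after loess and Aquantile scaling. Replicates are biological per the labels, and 4 arrays limit the precision.

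The group, the lists, the rule for named genes and the processing above, which was that of an earlier report of these data, were chosen with earlier results known. The rule names every tested gene of the group, with values by array and sample for 10 sensors, factors and chaperones and for any gene with an unadjusted p under 0.05 or one sign on all arrays, up to 3 genes per direction of the wider lists, and Ins1, Ins2, Gcg, Amy2a3 and Bhlha15 of the markers. Amy2a3 had no probe under that name and was not analysed here. Of the 39 genes, 30 had a RefSeq promoter, and 2 were matched under a newer symbol (Ero1a for Ero1l and Ero1b for Ero1lb). Samples with the same replicate number were never on the same array, and the labels do not say whether the numbers pair samples.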

Additional observations from a re-analysis of the deposited data

Results flagged for a closer look

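The array ratios of Trib3 were flagged because array 3, with a log2 IUGR over control ratio of -0.37, stood apart from the other 3 arrays. Its gap to the nearest other array was 0.844 of the whole range of the 4 ratios, above Dixon's 95% critical value for 4 samples. The other ratios were 0.29, 0.31 and 0.20 on arrays 1, 2 and 4. Trib3 was the 1 gene flagged among the 37 ER genes checked, and chance flags about 5% of such sets of values.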

How the results depend on the processing

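Of 18 alternatives run, 1 of them (a separate-channel fit without replicate numbers) chosen after seeing the data, 14 of 37 ER genes kept their sign in all, and Ern1 in the 17 that tested it. Several alternatives leave the mean ratio unchanged by design and so cannot turn a sign. Among these are the fits without a dye term, with array weights, with the replicate block and by separate channels. Centring each array on its median, without loess, called 15 genes. All of these were lower in IUGR and none was an ER gene. This centring left 13 ER genes above 0, against 46.8% of all genes, at a median of -0.11. It gave role group medians of -0.19 (sensors), 0.035 (effectors), -0.10 (chaperones), -0.14 (disulfide enzymes) and -0.074 (translocation and degradation). It turned the ratios of Xbp1 (-0.32), Atf4 (-0.19), Ddit3 (-0.23), Asns (-0.25), Hspa5 (-0.38), Hyou1 (-0.046), Dnajb9 (-0.17), Dnajc3 (-0.032), Sdf2l1 (-0.096), Calr (-0.11), Manf (-0.17), P4hb (-0.25), Pdia4 (-0.053), Ero1l (-0.14), Sec61b (-0.026), Ssr1 (-0.30), Syvn1 (-0.12), Derl3 (-0.27), Herpud1 (-0.17), Cars (-0.0039) and Psat1 (-0.064). The brightness covariate turned Eif2ak3 (0.044), Hspa5 (-0.21), Calr (-0.027) and P4hb (-0.0049), and a normexp offset of 0 turned Hspa5 (-0.0050); the cause was not tested.

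At an unadjusted p under 0.05, median centring, Agilent processed signals and the replicate block left 1, 2 and 18 ER genes higher. Agilent signals, no dye term and the covariate left 1, 1 and 1 lower. Over all genes, with both directions together, 2761 (13.7%) passed this p in the main fit. The number was 1187 (5.89%) with median centring, 1951 (9.68%) with Agilent signals and 6868 (34.1%) with the replicate block. It was 2896 (14.4%) with no dye term, 1088 (5.40%) with the covariate and 2365 (11.7%) with the offset of 0. Without spots of outlying background it was 1477 (7.38%), and with the separate-channel fit 5622 (27.9%). Wider ER genes counted 3 higher and 2 lower with median centring, 2 and 0 with Agilent signals, 8 and 3 without outlying backgrounds, 4 and 2 with the covariate, 31 and 10 with the separate-channel fit, and 8 higher with the offset of 0.

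With the replicate number as a block, a separate-channel fit called 2327 genes, 8 of them ER genes (Atf6, Nupr1, Dnajc3, Canx, Pdia3, Sec61a1, Sel1l and Derl1, each above 0), with 6868 genes, 37 wider genes higher and 10 lower at an unadjusted p under 0.05; without the number it called 0. Deviations of same-numbered samples correlated at -0.05, -0.29, 0.08 and -0.17, and none of the numbers correlated best with itself. Same-numbered samples never shared an array, while each sample shared the spots of an array with another number. The correlations therefore cannot decide whether the numbers pair the samples.

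Leaving out each array in turn called 0 genes. At an unadjusted p under 0.05 it gave 1 to 18 ER genes higher and 1 to 2 lower, and 467 to 6231 of all genes. Wider genes were 0 to 31 higher and 0 to 9 lower. Between 29 and 33 ER genes were above 0, against 52.1% to 54.3% of all genes, and group medians were 0.096 to 0.29. The highest counts of genes came without array 1. Role group medians were 0.067 to 0.26 for sensors, 0.12 to 0.18 for effectors, 0.085 to 0.50 for chaperones, 0.051 to 0.29 for disulfide enzymes and 0.18 to 0.37 for translocation and degradation. The sign changed within these ranges for Pdia6 (-0.078 to 0.070), Hspa5 (-0.13 to 0.14), Calr (-0.073 to 0.53), Ssr1 (-0.0015 to 0.090), Eif2ak3 (-0.20 to 0.017), Xbp1 (-0.014 to 0.085), Trib3 (-0.035 to 0.25) and Derl3 (-0.0044 to 0.17). With 2 residual degrees of freedom and 4 arrays, and Ern1 near background, the precision of single genes is low.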
